A study of Caenorhabditis elegans with 16 samples.

Results

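The 4 genes described here, ncx-7, spin-1, pept-1 and mct-2, encode membrane transporters of Caenorhabditis elegans. They were chosen by measured values: their mean level was higher in fasted than in fed worms at 20°C and lower in fasted than in fed worms after heat shock. They are 4 of the 410 genes that both deposited tables list, one table holding 1442 genes compared after heat shock and the other 2666 genes compared at 20°C. The RNA came from whole N2 animals, the wild-type strain, grown on OP50 bacteria at 20°C, and was sequenced in 4 groups of 4 libraries. The groups were fasted heat shock, fed heat shock, fasted 20°C and fed 20°C worms, where fasted worms spent 24 h without food from the middle of L4, the last larval stage, and heat shock was 30 min at 35°C. The labels add a recovery of 24 h after the fast, whereas the study's account of its RNA sequencing has fasted worms collected right after the fast, so the feeding state of the fasted groups at collection is uncertain. Whether the 4 libraries of a group were grown as separate cultures is not stated, and any p-value below covers the spread among these libraries alone, which may be technical.

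Solute carriers move ions, nutrients and metabolites across cell and organelle membranes, mostly by coupling them to the gradient of an ion such as sodium or protons. In the worm much of this transport takes place in the intestine, which absorbs food, stores fat and holds many lysosome-related organelles. PEPT-1 is the proton-coupled carrier of the intestinal apical membrane that takes up short peptides from digested food. SPIN-1 belongs to the spinster family, which exports breakdown products from lysosomes. NCX-7 belongs to the sodium/calcium exchangers, which exchange sodium for calcium across membranes. MCT-2 is a relative of the mammalian monocarboxylate transporters, which carry lactate, pyruvate and ketone bodies in mammals. The worm's own MCT-2 substrate is not assumed here.

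In the coordinates of the deposited tables (WBcel235), ncx-7 (C07A9.11) lies on chromosome III at 9715883 to 9720291 on the minus strand and pept-1 (K04E7.2) on chromosome X at 6456687 to 6461767 on the plus strand. On chromosome V, spin-1 (C13C4.5) lies at 12114991 to 12117561 on the plus strand and mct-2 (C01B4.9) at 2483004 to 2487785 on the minus strand. RefSeq and Ensembl extend mct-2 to 2494791, beyond the deposited end, and the effect of this on its counts was not tested. All are protein-coding genes, measured over a gene length of 2201 bases for ncx-7, 1870 for spin-1, 2933 for pept-1 and 1716 for mct-2. A small nucleolar RNA gene lies opposite ncx-7 and a non-coding RNA gene opposite spin-1. Use of strand in counting is not stated, and reads of these overlapping pairs cannot be told apart. The Ensembl annotation gives the name mct-2 also to a second gene on chromosome V, at 2375043 to 2379505, which RefSeq calls mct-1, and how reads were shared between these relatives was not tested.

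Levels are given as FPKM, the fragments scaled to gene length and to the reads of the library, which the authors computed per library and which is therefore on one scale in both tables. The libraries held 15859001 to 26398842 reads. The intestinal peptide carrier pept-1 had the highest level of the 4 genes in each group. Its FPKM was 3.40, 3.73, 3.08 and 3.41 in fasted heat shock worms and 9.94, 5.66, 2.64 and 4.93 in fed heat shock worms. At 20°C it was 35.5, 30.2, 22.3 and 45.4 in fasted worms and 14.2, 9.09, 12.9 and 22.4 in fed worms. All 4 fasted heat shock libraries lay close together inside the range of the fed heat shock libraries, while 3 of the 4 fasted 20°C libraries lay above every fed 20°C library. The means were 3.40 ± 0.27 and 5.79 ± 3.05 FPKM in fasted and fed heat shock worms, and 33.3 ± 9.7 and 14.6 ± 5.6 FPKM in fasted and fed 20°C worms (SD, n = 4 each).

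The lysosomal carrier spin-1 had the same order of group means at a lower level. Its FPKM was 1.92, 1.82, 1.84 and 1.57 in fasted heat shock worms and 5.56, 2.22, 1.88 and 2.47 in fed heat shock worms. At 20°C it was 14.8, 13.7, 9.88 and 13.9 in fasted worms and 5.04, 4.15, 4.96 and 7.78 in fed worms. It was the only one of the 4 genes whose fasted 20°C libraries all lay above the fed 20°C libraries, whereas after heat shock 3 of the 4 fasted libraries lay below every fed library and 1 fell among them. Mean levels were 1.78 ± 0.15 and 3.03 ± 1.70 FPKM in fasted and fed heat shock worms, and 13.1 ± 2.2 and 5.48 ± 1.58 FPKM in fasted and fed 20°C worms (SD, n = 4 each).

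For the exchanger gene ncx-7, FPKM was 0.480, 0.434, 0.512 and 0.417 in fasted heat shock worms and 2.81, 1.53, 1.04 and 1.35 in fed heat shock worms. At 20°C it was 7.99, 7.40, 5.60 and 9.04 in fasted worms and 3.57, 3.18, 6.56 and 5.56 in fed worms. Here the heat shock groups were the ones apart, with every fasted library below every fed library, while 3 of the 4 fasted 20°C libraries exceeded all fed 20°C libraries. The means were 0.461 ± 0.043 and 1.68 ± 0.78 FPKM in fasted and fed heat shock worms, against 7.50 ± 1.44 and 4.72 ± 1.61 FPKM in fasted and fed 20°C worms (SD, n = 4 each). The fasted heat shock level rests on 16 to 23 raw counts per library, the fewest of any group for these genes.

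The monocarboxylate transporter relative mct-2 had a different order. Its FPKM was 0.910, 1.39, 1.77 and 1.24 in fasted heat shock worms and 4.46, 3.50, 1.5 and 2.76 in fed heat shock worms. At 20°C it was 4.68, 1.52, 1.32 and 2.84 in fasted worms and 1.16, 1.40, 1.38 and 1.15 in fed worms. Fed heat shock worms had the highest mean, 3.05 ± 1.25 FPKM, against 1.33 ± 0.36 FPKM in fasted heat shock worms, and fasted 20°C worms averaged 2.59 ± 1.55 FPKM against 1.27 ± 0.14 FPKM in fed 20°C worms (SD, n = 4 each). The fasted 20°C libraries fell into a high pair, replicates 1 and 4, and a pair near the fed libraries.

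**Figure D1:**
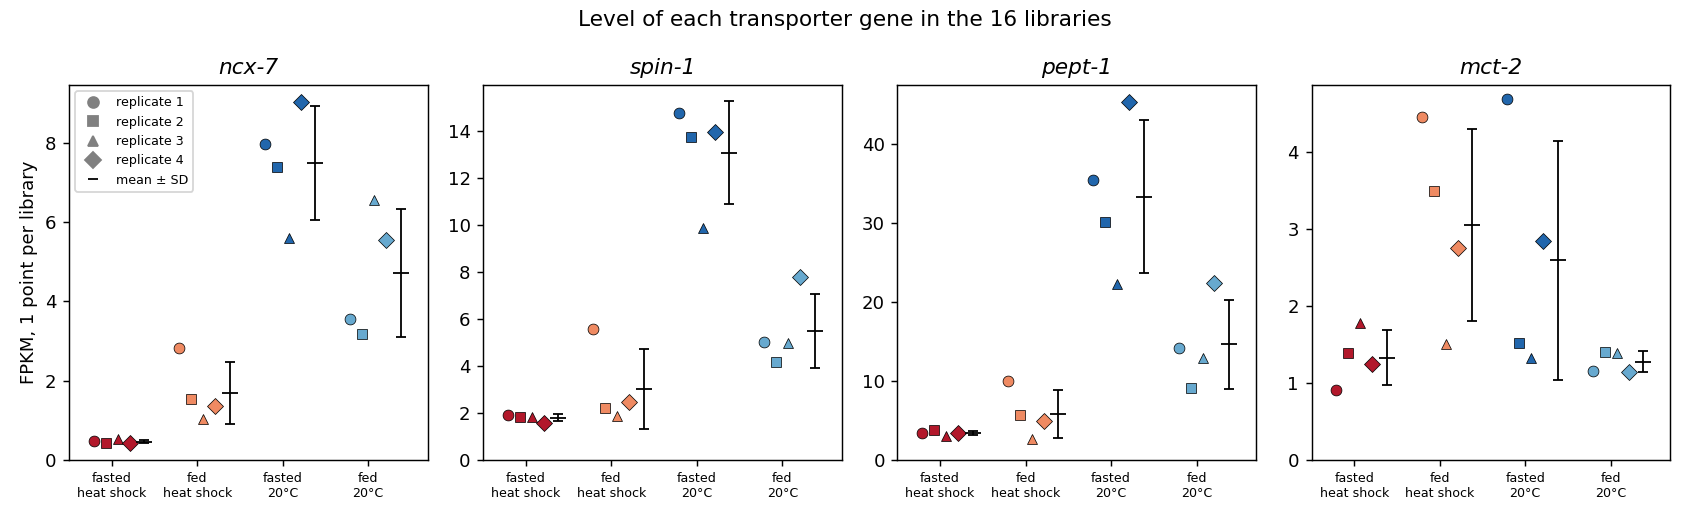
FPKM (vertical axis, linear, from 0) of ncx-7, spin-1, pept-1 and mct-2 in each of the 16 libraries, by group along the horizontal axis. Each point is a library, its shape the replicate number, and each bar beside the points is the group mean ± SD (n = 4). For ncx-7, spin-1 and pept-1 both 20°C groups have higher means than both heat shock groups, and for mct-2 the fed heat shock mean of 3.05 is the highest.

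Ordered by level, ncx-7, spin-1 and pept-1 thus ran from fasted 20°C through fed 20°C and fed heat shock to fasted heat shock. Of the neighbours in that order, fasted and fed 20°C libraries overlapped for ncx-7 and pept-1, fed heat shock and fed 20°C libraries for spin-1 and pept-1, and fasted and fed heat shock libraries for spin-1 and pept-1. For mct-2 the order was fed heat shock, fasted 20°C, fasted heat shock and fed 20°C, and each pair of neighbours overlapped. In fed worms, every heat shock library of mct-2 lay above every 20°C library. Which groups were apart is a description. The choice of the members and the p-value limit of the tables both favour groups that are apart. The share of all listed genes whose groups were apart is not given here, so being apart is not read as particular to the members.

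The fasting effects that chose the members are given as a description. After heat shock, the log2 fold change of fasted over fed worms was -1.87 (SE 0.38) for ncx-7, -1.20 (SE 0.37) for mct-2, -0.77 (SE 0.35) for pept-1 and -0.77 (SE 0.37) for spin-1. At 20°C it was 0.69 (SE 0.27) for ncx-7, 1.07 (SE 0.39) for mct-2, 1.21 (SE 0.29) for pept-1 and 1.27 (SE 0.23) for spin-1. The gene with the largest effect after heat shock, ncx-7, therefore had the smallest at 20°C, and for spin-1 and pept-1 the larger effect was the one at 20°C. The fasting effect after heat shock minus that at 20°C was -2.54 (SE 0.45) for ncx-7, -2.24 (SE 0.57) for mct-2, -2.02 (SE 0.43) for spin-1 and -1.96 (SE 0.46) for pept-1 on the log2 scale, and the median of this difference over the 410 genes was -0.14.

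One library carried much of the fed level after heat shock. Fed heat shock replicate 1 was the highest of its group for all 4 genes, at 2.15 times the mean of the other 3 libraries for ncx-7, 2.54 times for spin-1, 2.26 times for pept-1 and 1.72 times for mct-2. Without it, the fasting effect after heat shock was -1.45 (SE 0.30) for ncx-7 and -0.92 (SE 0.35) for mct-2 on the log2 scale. The same left-out library brought spin-1 to -0.25 (SE 0.23) and pept-1 to -0.33 (SE 0.25), little more than their standard errors. That library also had the highest FPKM of its group for 51.2% of the 410 genes. At the other end, fed heat shock replicate 3 was the lowest of its group for all 4 genes, and the effect of pept-1 without it was -1.02 (SE 0.26).

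At 20°C, the lowest fasted library for all 4 genes was replicate 3, which was at the same time the highest of its group for 55.9% of the 410 genes. Without it the 20°C fasting effects were somewhat larger, at 0.82 (SE 0.27) for ncx-7, 1.40 (SE 0.22) for spin-1, 1.37 (SE 0.29) for pept-1 and 1.30 (SE 0.35) for mct-2. The 20°C effect of mct-2 rested in part on fasted replicate 1, at 4.68 FPKM against 1.32 to 2.84 FPKM in the other fasted libraries. Without that library the effect was 0.61 (SE 0.33). Each of the 4 genes kept its sign at both temperatures in each fit that left out 1 library, with ranges after heat shock of -2.05 to -1.45 for ncx-7, -0.95 to -0.25 for spin-1, -1.02 to -0.33 for pept-1 and -1.43 to -0.92 for mct-2.

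**Figure D2:**
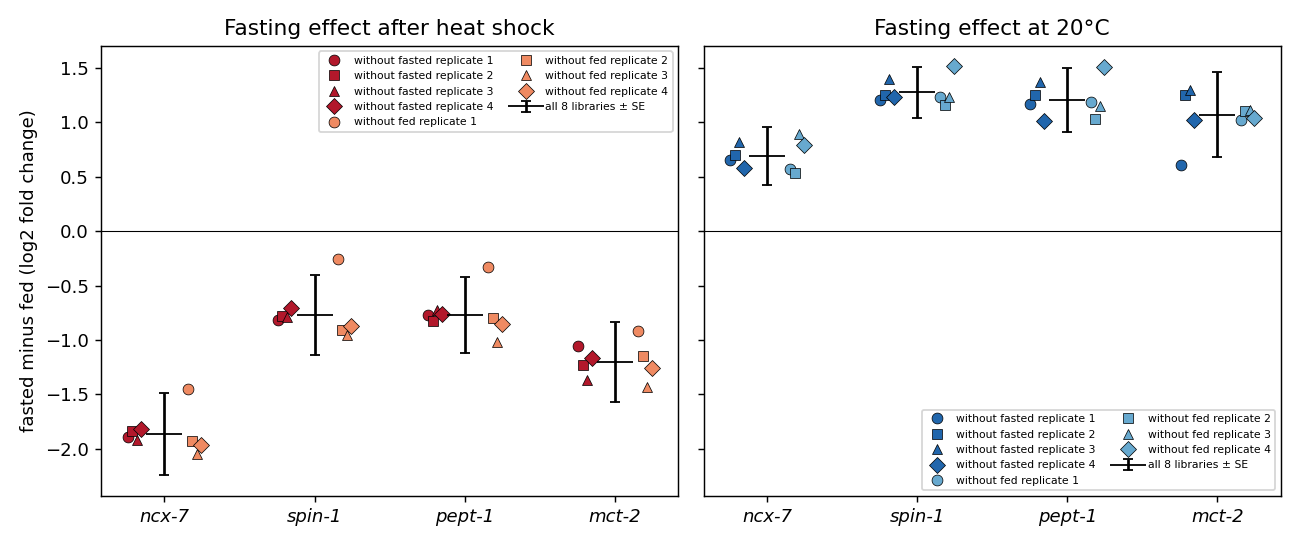
Fasting effect (log2 fold change of fasted over fed, vertical axis) of each gene after heat shock (left) and at 20°C (right) with all 8 libraries of that temperature (bar, ± SE) and with each library left out in turn (points, shape for the replicate number, darker points for a fasted library left out). Leaving out fed heat shock replicate 1 brings spin-1 to -0.25 and pept-1 to -0.33, and leaving out fasted 20°C replicate 1 brings mct-2 to 0.61.

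The heat effect averaged over fed and fasted worms was not used to pick the genes. With 4 libraries in each group, its weights are orthogonal to those of both fasting effects. The 410 genes had passed a p-value limit in both tables, which favours a small spread within groups. The test of the heat effect uses that same spread, so its p-values are not free of the choice. Of the members, 3 fell after heat shock, and mct-2 did not pass the test. The fall was 6.72-fold for ncx-7, a log2 fold change of -2.75 (SE 0.23, adjusted p = 4.4e-08 by edgeR's quasi-likelihood test with Benjamini-Hochberg adjustment over the 410 genes). It was 4.97-fold for pept-1, a log2 fold change of -2.31 (SE 0.24, adjusted p = 8.2e-07), and 3.63-fold for spin-1, at -1.86 (SE 0.22, adjusted p = 4.1e-06). For mct-2 it was 0.15 (SE 0.28, adjusted p = 0.77), a value that leaves room for a moderate change either way. Thus 3 of 4 members were called lower, whereas 68 of the 410 genes, 16.6%, were called lower and 44 higher, and the median heat effect over all 410 was -0.05. Of the 18 other genes with the members' pattern of means, 17 were called lower, so the call was not particular to the members. Counted from the most negative of the 410 heat effects, ncx-7 stood at place 6, pept-1 at 9, spin-1 at 18 and mct-2 at 284. Without fasted heat shock replicate 3, 44 genes were called lower, and the 3 members kept their call with any single library left out.

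An exact permutation test of the mean log2(FPKM + 1), two-sided, with the temperature labels exchanged within fed and within fasted worms over 4900 arrangements, gave p = 0.000408 for ncx-7, the smallest it can give. The exact test gave p = 0.000816 for pept-1, p = 0.00163 for spin-1 and p = 0.661 for mct-2. Its null is that temperature has no effect in fed worms and none in fasted worms. Genes picked for opposite fasting effects already differ by temperature in fed or in fasted worms. These p-values are therefore not free of the choice either. Since whole animals were sequenced, fewer cells of a type and less RNA per cell cannot be told apart. The labels name no batch.

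The averaged value holds unlike parts, which the choice of the genes shaped and which are therefore given without a test. In fasted worms the log2 fold change of heat shock over 20°C was -4.02 (SE 0.35) for ncx-7, -3.29 (SE 0.35) for pept-1, -2.87 (SE 0.32) for spin-1 and -0.97 (SE 0.40) for mct-2. In fed worms it was -1.48 (SE 0.31) for ncx-7, -1.34 (SE 0.33) for pept-1, -0.85 (SE 0.30) for spin-1 and 1.27 (SE 0.41) for mct-2. As ratios of mean FPKM, fasted heat shock worms had 16.3-fold less ncx-7, 9.80-fold less pept-1 and 7.34-fold less spin-1 than fasted 20°C worms, with no overlap of libraries. Fed heat shock worms had 2.80-fold less ncx-7, 2.53-fold less pept-1 and 1.81-fold less spin-1 than fed 20°C worms, and only for ncx-7 were these libraries apart. The mct-2 mean was 2.40-fold higher in fed heat shock than in fed 20°C worms and 1.95-fold lower in fasted heat shock than in fasted 20°C worms.

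**Figure D3:**
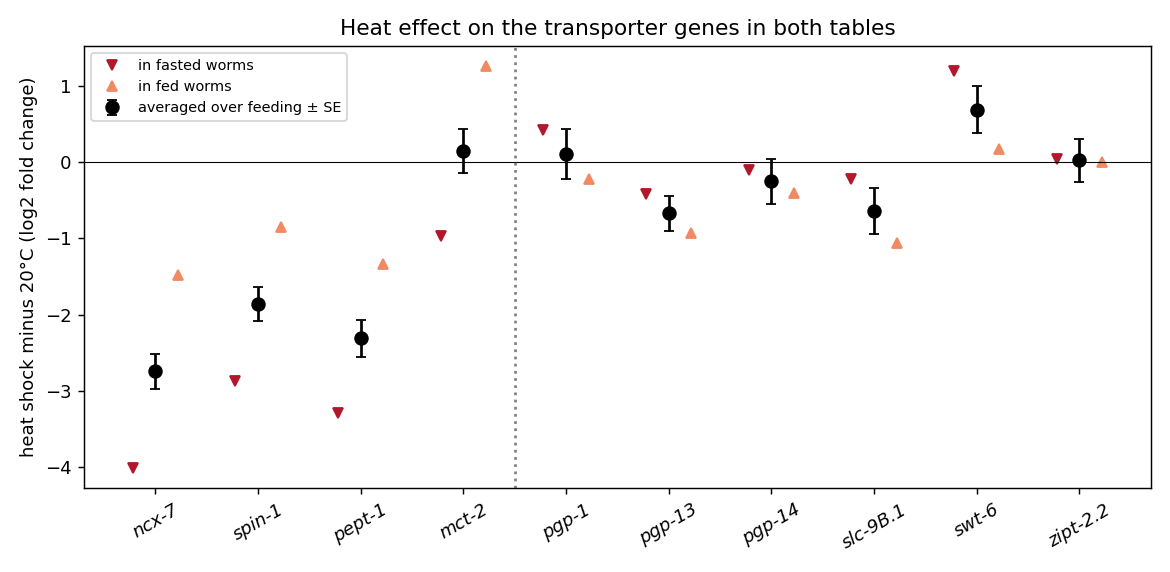
Heat effect (log2 fold change of heat shock over 20°C, vertical axis) of the 10 transporter genes that both tables list, averaged over feeding (circles, ± SE), in fasted worms (downward triangles) and in fed worms (upward triangles). Left of the dotted line, ncx-7, spin-1 and pept-1 lie between -2.75 and -1.86 on average and mct-2 at 0.15, with the fasted value below the fed value in each. The 6 other genes lie between -0.67 and 0.69 on average.

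The same 2-way pattern of means, higher in fasted worms at 20°C and lower in fasted worms after heat shock, was held by 22 of the 410 genes, or 5.37%, the members included. The reverse pattern was held by 8 genes, while 242 were higher in fasted worms at both temperatures and 138 lower at both. Of the 18 other genes with the members' pattern, 17 were called lower after heat, against 16.6% of all 410, with a median heat effect of -1.34, so a fall after heat was common to most genes of that pattern. Fed heat shock replicate 1 was the highest of its group for 17 of these 18 genes as well. Of the 8 genes with the reverse pattern, 7 were called higher after heat.

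**Figure D4:**
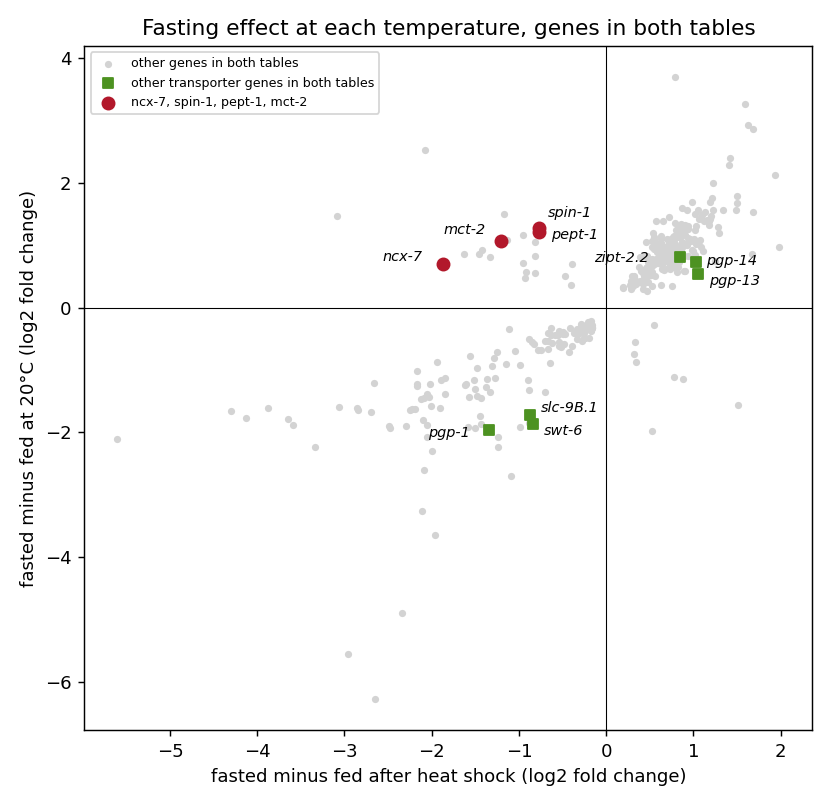
Fasting effect (log2 fold change of fasted over fed) after heat shock (horizontal axis) and at 20°C (vertical axis) for the 410 genes that both tables list, 1 point per gene. The 4 members sit at the upper left, by which they were picked, and the other 6 transporter genes (squares) lie where both effects have 1 sign. The empty band around 0 follows from the tables, which list genes past a p-value limit.

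Over the 16 libraries, 3 of the members followed each other closely. Pearson's r of log2(FPKM + 1) was 0.98 between spin-1 and pept-1, 0.96 between ncx-7 and pept-1 and 0.95 between ncx-7 and spin-1, whereas mct-2 reached 0.24 to 0.29 with them. With each group's mean removed, so that only the spread between libraries of a group remained, r was 0.89 for spin-1 and pept-1, 0.79 for ncx-7 with either of them and 0.52 to 0.58 for mct-2 with the others. These values describe libraries that share their depth and handling. The first set also holds the differences between groups by which the members were picked, so a high r there is favoured by the choice.

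Among the 410 genes, those most like a member by the r over all 16 libraries were members or genes with the same pattern. Picking the members by that pattern favours this, so the genes are named as a description. The closest to spin-1 were pept-1 (r = 0.98), pcp-3 (0.98), a relative of prolyl carboxypeptidases, and nas-3 (0.95), an astacin-type protease. For pept-1 they were spin-1, pcp-3 (0.98) and gtl-1 (0.96), a TRPM-type cation channel. For ncx-7 they were sptl-3 (0.97), a serine palmitoyltransferase subunit of sphingolipid synthesis, pept-1 (0.96) and pcp-3 (0.96). The r of the deviations from the group means was 0.93 for pcp-3 with spin-1, 0.89 with pept-1 and 0.78 with ncx-7, and it was 0.83 for sptl-3 with ncx-7, 0.78 for gtl-1 with pept-1 and 0.75 for nas-3 with spin-1. Nothing came as near to mct-2, whose closest genes were snt-5 (0.76), a synaptotagmin, F47G3.1 (0.64) and sup-10 (0.50), a regulator of a muscle potassium channel, with an r of the deviations of 0.75, 0.70 and 0.51.

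pcp-3 had mean levels of 1.32 and 2.88 FPKM in fasted and fed heat shock worms and 13.8 and 6.62 FPKM in fasted and fed 20°C worms, and its heat effect was -2.28 (SE 0.32, adjusted p = 2.9e-05). Next to mct-2, snt-5 had 3.06 and 4.26 FPKM in fasted and fed heat shock worms and 5.0 and 3.58 FPKM in fasted and fed 20°C worms, and its heat effect averaged over feeding was -0.23 (SE 0.15, adjusted p = 0.30).

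Both tables listed 6 more transporter genes, which are those left after the members, with their opposite effects, were taken out, so that their fasting effects are given as a description. After heat shock and at 20°C, the fasting effect was 0.85 (SE 0.37) and 0.81 (SE 0.37) for zipt-2.2, a ZIP-family zinc transporter, 1.06 (SE 0.35) and 0.53 (SE 0.22) for pgp-13, and 1.03 (SE 0.44) and 0.74 (SE 0.38) for pgp-14, both P-glycoproteins of the ABC family. Both values were negative for pgp-1, another P-glycoprotein, at -1.34 (SE 0.52) and -1.96 (SE 0.32), for swt-6, a SWEET sugar transporter, at -0.83 (SE 0.37) and -1.86 (SE 0.42), and for slc-9B.1, a sodium/proton exchanger relative, at -0.88 (SE 0.45) and -1.72 (SE 0.34). The tables list only genes past a p-value limit, so genes with no effect are missing. Small effects were listed all the same, such as -0.16 after heat shock and -0.28 at 20°C for toe-2. The members nearest to 0 were ncx-7 at 20°C (0.69) and pept-1 and spin-1 after heat shock (-0.77), and the nearest transporter outside the rule that was higher in fasted worms at 20°C was zipt-2.2, at 0.85 after heat shock.

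The heat effect averaged over feeding was called for 1 of these 6, pgp-13, which was lower by 0.67 on the log2 scale (SE 0.23, adjusted p = 0.037). It was 0.69 (SE 0.31, adjusted p = 0.10) for swt-6, -0.64 (SE 0.30, adjusted p = 0.13) for slc-9B.1, -0.25 (SE 0.30) for pgp-14, 0.11 (SE 0.33) for pgp-1 and 0.03 (SE 0.28) for zipt-2.2. The level of zipt-2.2 was nearly equal at both temperatures, at 3.12 ± 0.74 and 1.72 ± 0.79 FPKM in fasted and fed heat shock worms and 3.03 ± 1.61 and 1.72 ± 0.49 FPKM in fasted and fed 20°C worms (SD, n = 4 each).

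The members' closest relatives, 21 other genes with names starting ncx, spin, pept, mct or slcf, gave 1 listed gene after heat shock (4.76%, against 9.33% of all genes adjusted over) and 4 at 20°C (19%, against 17.8% of all genes), and edgeR called none of them (all 5 had an unadjusted p under 0.05, and DESeq2 called 2, both at 20°C). After heat shock this was ncx-6, another sodium/calcium exchanger, with 0.288 ± 0.193 and 0.859 ± 0.659 FPKM in fasted and fed worms and a fasting effect of -1.59 (SE 0.70, adjusted p = 0.66). At 20°C the mct family had effects of both signs. mct-1 was nearly silent in fasted worms, at 0.0521 ± 0.0483 FPKM against 0.890 ± 1.157 FPKM in fed worms, with a fasting effect of -4.04 (SE 1.05, adjusted p = 0.082). The other 3 had positive values, at 0.80 (SE 0.25, adjusted p = 0.14) for mct-3, 0.53 (SE 0.24, adjusted p = 0.31) for mct-4 and 0.38 (SE 0.17, adjusted p = 0.30) for mct-6. With the replicate number as a block, mct-1 (adjusted p = 0.019) and mct-3 (adjusted p = 0.043) were called.

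Among 256 transporter genes other than the members, the heat shock table held 22, with 5 fasted means higher and 17 lower and a median log2 value of -0.66, against 770 higher and 672 lower and a median of 0.20 over all 1442 listed genes. None of the 22 was called (17 had an unadjusted p under 0.05 by edgeR, and DESeq2 called 0), as was none of the 15456 genes adjusted over (0%, with 1132 at an unadjusted p under 0.05 and 51 called by DESeq2). Without fed replicate 1 and fasted replicate 4, 2 of the 22 were called, against 216 of the 1442 listed genes. The 20°C table held 55, with 36 fasted means higher and 19 lower and a median of 0.48, against a median of 0.57 over all 2666 listed genes. Of the 256, 4 were called in each direction, where 1.92% of 14982 genes were called higher and 0.534% lower. These were 288 higher and 80 lower, all among the 2666 listed genes. With the replicate block 13 of the 55 were called, against 686 of the 2666. Leaving out any 1 of fasted replicates 1 to 4 or fed replicates 1 to 3 gave 2 to 5 calls, and leaving out fed replicate 4 gave 9.

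The called transporters at 20°C included 3 ABC genes and 5 other solute carriers. Higher in fasted worms were pmp-5 (1.15, SE 0.15, adjusted p = 0.0046) and pmp-1 (1.07, SE 0.21, adjusted p = 0.030), ABC transporters related to those of the peroxisome membrane. The same held for nhx-2 (1.06, SE 0.22, adjusted p = 0.036), the sodium/proton exchanger of the intestinal apical membrane whose activity PEPT-1 uptake is known to draw on, and for swt-3 (1.06, SE 0.23, adjusted p = 0.042), a SWEET sugar transporter. For nhx-2 the mean was 21.4 ± 4.1 FPKM in fasted and 10.4 ± 2.7 FPKM in fed 20°C worms (SD, n = 4 each), and the libraries of the 2 groups were apart. They were also apart at 20°C for listed transporters that were not called, such as zipt-7.2 and swt-7. Lower in fasted worms were pgp-1 (adjusted p = 0.014), slc-9B.1 (adjusted p = 0.030) and swt-6 (adjusted p = 0.049), with the effects given above, and ctns-1 (-0.46, SE 0.09, adjusted p = 0.036), the worm cystinosin, which exports cystine from lysosomes. nhx-2, swt-3, pmp-5, pmp-1 and ctns-1 were not listed after heat shock.

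Levels of tissue markers in the same libraries are given beside these values. At 20°C, 7 of 8 muscle markers were listed and all 7 had higher means in fasted worms, with a summed level of 909 to 1238 FPKM in fasted and 553 to 877 FPKM in fed libraries. Of 11 intestinal markers, 7 were listed, 4 with higher and 3 with lower fasted means, and their sums overlapped, at 767 to 912 FPKM in fasted and 688 to 1019 FPKM in fed libraries. For 3 of 8 hypodermal markers, with col-19 and col-140 higher and dpy-7 lower, the sum was 1109 to 2043 FPKM in fasted and 602 to 935 FPKM in fed libraries. For neurons, 3 of 8 were listed, each higher, at 51.7 to 104.6 FPKM in fasted and 31.8 to 52.8 FPKM in fed libraries, and for the germline 1 of 10, lower, at 381 to 494 FPKM in fasted and 476 to 612 FPKM in fed libraries. After heat shock no intestinal or germline marker was listed. The summed level of 6 hypodermal markers, 2 higher and 4 lower, was 1008 to 2266 FPKM in fasted and 863 to 1598 FPKM in fed heat shock libraries. Nearly all of it came from the same col-19, col-140 and dpy-7, at 1003 to 2252 FPKM in fasted and 851 to 1574 FPKM in fed libraries. Of these, col-19 (1.20) and col-140 (0.47) had positive log2 fasting effects after heat shock. The effect of dpy-7, itself among the 4 lower markers, was -2.66. Here and at 20°C the hypodermal sum thus joins markers of both directions and says little about the lower ones. The 3 neuronal markers listed there, each higher, summed to 58.6 to 101.8 FPKM in fasted and 40.0 to 79.1 FPKM in fed libraries, and 1 muscle marker, higher, lay at 323 to 474 FPKM in fasted and 221 to 410 FPKM in fed libraries. No listed marker was at 0 at 20°C, and 1 library value was at 0 after heat shock. The part of tissue makeup in the members' values was not tested.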

How the data were processed

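Whole-worm RNA was sequenced in 16 libraries. The authors aligned paired reads to WBcel235 with HISAT2 2.0.5 and made raw counts per gene with featureCounts 1.5.0-p3. The deposited signal values are normalized counts, each count divided by a size factor that the authors set separately in each table. The deposited FPKM values use gene length and library reads. The authors' fold changes and p-values (DESeq2) were not used as results; their p-value columns served only to find that each table lists genes with an unadjusted p under 0.05, out of 15456 genes adjusted over after heat shock and 14982 at 20°C.

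Library reads were recovered from count, FPKM and length. Raw counts were tested with edgeR 4.0.16 (R 4.3.3, quasi-likelihood, Benjamini-Hochberg, called at an adjusted p under 0.05). For the heat effect all 16 libraries were fitted over the 410 shared genes, scaled by library reads. For the fasting effects 8 libraries per temperature were fitted with the authors' size factors, and unlisted genes counted as p = 1. The difference of the fasting effects came from the fit of the heat effect. Permutation tests and correlations used Python 3.11.15, numpy 2.4.6, pandas 2.3.3 and scipy 1.17.1. Other settings tried were limma 3.58.1 on FPKM after adding 1 or 0.1 and taking log2, DESeq2 1.42.0, other scalings, a mean of at least 10 counts, a replicate block and left-out libraries. The fits were also run on simulated counts with the same dispersion in all genes, scaled by library reads. That run does not cover the authors' size factors or the p-value limit of the tables, and no conclusion is drawn from it.

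Named are the 4 members, transporters listed in both tables, up to 4 called genes per transporter list and temperature with the smallest p, and the 3 genes most correlated with each member. Relatives that did not pass were added after their values were seen. The members and lists were chosen with earlier results of these data known. The member pept-1, under its older name opt-2, was taken out of the intestinal markers. At 20°C, deviations of same-numbered fasted and fed libraries correlated at 0.16, 0.27, 0.37 and 0.16 over 2459 genes, each over 0.1. The numbers were therefore treated as possible pairs there, from the data and not from the labels. Fasted replicate 2 correlated more with fed replicate 1 (0.40) than with fed replicate 2 (0.27), so this pairing is uncertain. The fits without the block stayed the main ones, and the blocked result is given where it changed a call or a count. Gene names came from RefSeq. Promoter and protein sequences were not analysed here.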

Additional observations from a re-analysis of the deposited data

Results flagged for a closer look

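In fed heat shock worms, spin-1 stood at 5.56 FPKM in replicate 1, against 1.88, 2.22 and 2.47 FPKM in the other libraries, a gap to the nearest library beyond Dixon's 95% limit for 4 samples. It was 1 of 16 combinations of gene and group examined, and chance flags about 1 in 20.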

How the results depend on the processing

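The heat effects of ncx-7, spin-1, pept-1 and mct-2 kept their direction and their side of the threshold in all 25 alternatives each. Leaving out each library gave -2.93 to -2.65 for ncx-7, -2.10 to -1.75 for spin-1, -2.51 to -2.17 for pept-1 and 0.03 to 0.38 for mct-2. The count of genes called after heat, 68 lower and 44 higher, was 22 and 24 when adjusted over all genes, by construction of a wider adjustment, and 44 to 78 lower and 35 to 54 higher with a library left out. TMM over the shared genes gave 57 lower and 63 higher, 47.5% against 60.7% lower.

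The fasting effect of no member changed sign. After heat shock, leaving out both fed replicate 1 and fasted replicate 4, the lowest of its group for 231 of the 410 genes, gave -1.40 for ncx-7, -0.19 for spin-1, -0.32 for pept-1 and -0.88 for mct-2. With limma on log2(FPKM + 1), which understates low genes, ncx-7 gave -0.84 and mct-2 -0.76 after heat shock and mct-2 0.57 at 20°C.

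Genes called at 20°C numbered 368 (288 higher), and 877 with DESeq2, 686 with the replicate block and 107 to 471 with a library left out. TMM there lowered the median of all listed genes by 0.19 and gave 156 higher and 153 lower. After heat shock 0 genes were called (1132 at an unadjusted p under 0.05), against 51 with DESeq2, 1 and 2 with limma at pseudocounts of 1 and 0.1, and 216 without both libraries named above, when 2 of the other transporters were called. The 8 transporters called at 20°C became 13 with DESeq2 and with the replicate block, and 2 to 9 with a library left out. The cause of these differences was not tested. After heat shock same-numbered libraries correlated at 0.03 to 0.41, not all above 0.1, and the replicate block there gave 0 calls. Where groups differ by temperature the numbers did not pair either, and the block changed no call of the 4 genes. Low counts limit ncx-7 in fasted heat shock worms (16 to 23) and mct-2 in fasted heat shock (34 to 54) and fed 20°C worms (38 to 46) most.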
